A study of Mus musculus with 6 samples.

Results

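Serpins are a superfamily of proteins named for the inhibition of serine proteases. An inhibitory serpin offers a flexible loop as bait, and the protease that cuts it is trapped in a covalent complex while the loop folds into the serpin's core. Members are grouped into clades by letter: most clade A and clade C to G members are secreted plasma proteins that act on coagulation, fibrinolysis, complement and neutrophil proteases, most clade B members stay inside cells, and a few members carry hormones or assist protein folding instead. Mouse clades A and B hold tandem arrays of closely related genes, so a probe set may read more than the gene it is named for.

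The members described here are the 54 genes, of 22180 tested, whose platform annotation gave exactly 1 symbol made of Serpin, a clade letter from a to i and a number. They came from 55 probe sets, since Serpinb9b had a second one, and each gene was read from its probe set of highest mean value across the 6 arrays. Another 2 probe sets that pair a Serpin symbol with a second gene were left out. By clade there were 20 genes in A, 25 in B, 2 each in F and I, and 1 each in C, D, E, G and H.

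RNA came from kidneys of mice aged 4 weeks that received no treatment, with 3 Cre-negative and 3 Cre-positive samples by their labels, and each sample was hybridised to its own Affymetrix array. The labels describe both groups as of mixed background and name a conditional knockout of Mpp5, the gene of the polarity protein Pals1, together with Six2-Cre transgenic mice. Six2-Cre is active in progenitors of nephron epithelium, whereas collecting duct progenitors lack it. The number of conditional Mpp5 alleles in either group is not given here by the labels, and the series title speaks of haplo-insufficiency. No label says that the samples are separate mice, so the spread behind each p-value is that of these 6 samples and may be technical. Values are log2 intensities after RMA, an array normalization, differences are Cre-positive minus Cre-negative on that log2 scale, errors on differences are limma standard errors with n = 3 per group, and a gene is called at limma adjusted p under 0.05. Fold changes of dim genes are understated on this scale. The number of arrays limits the precision.

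Mpp5 itself was at 8.66, 8.69 and 8.78 in the Cre-negative arrays and at 8.04, 8.06 and 8.20 in the Cre-positive arrays (-0.61 ± 0.09, limma adjusted p = 0.00232). The kidney label matched high values of the proximal tubule genes Slc34a1 and Lrp2, at 12.97 and 12.41 in Cre-negative replicate 1. Xist, which is transcribed in females, reached 10.76 in Cre-negative replicate 1 and 10.70 in replicate 2, against 4.00 to 4.29 in the other 4 arrays, whereas Uty, on the Y chromosome, was at 4.54 and 4.10 in those replicates and at 8.98 to 9.17 in the others. The groups were therefore not balanced for sex, and Serpin results below are also given from a fit that adds sex (the sex term). Its estimate equals the difference from Cre-negative replicate 3 alone. A call lost in that fit does not by itself mean a smaller difference, since that array alone then stands for the Cre-negative group. Cre-negative replicate 2 also held adrenal transcripts (Cyp11b1 at 11.10, against 3.85 to 4.24 elsewhere), and Cre-positive replicate 2 held skeletal muscle transcripts (Myh4 at 7.72, against 3.93 to 4.86). In whole tissue, fewer cells of a type and less RNA per cell cannot be told apart.

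Of the 54 Serpin genes, 9 rose, 4 fell and 41 did not pass the test in Cre-positive kidneys. The 13 called genes are 24.1% of the members, against 21.8% of all tested genes, so the family as a whole was called about as often as the background. By direction, 10.7% of all tested genes were called higher and 11.1% lower. The median difference was -0.04 over the members and -0.01 over all genes. Groups did not overlap for 21 members, 11 higher and 10 lower, or 38.9% of the family against 38.5% of all genes (18.6% higher and 19.9% lower). The sizes were wide: 7 members differed by at least 1 on the log2 scale, from -4.22 for Serpina1d to 4.46 for Serpina3n. Differences of at least that size were found for 984 of all 22180 tested genes. Y-linked genes, as a guide to probe sets without target, stood at 3.66 to 4.54 in the arrays with Xist transcript. Of the members, 26 were at or below 4.54 in every array, against 4634 of all 22180 tested genes, a smaller share. Limma called 0 of those 26, and 1 of them (Serpinb6e) had an unadjusted p under 0.05. With the sex term 6 members were called higher and 4 lower, against 4.10% and 5.05% of all genes (9.15% together), and 8 of the 13 calls held. Median centring of the arrays, which moved the median of all genes to -0.07, gave 8 higher and 6 lower. Without both replicates 2, the arrays with transcripts of other tissues, limma called 3 higher and 2 lower.

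**Figure D1:**
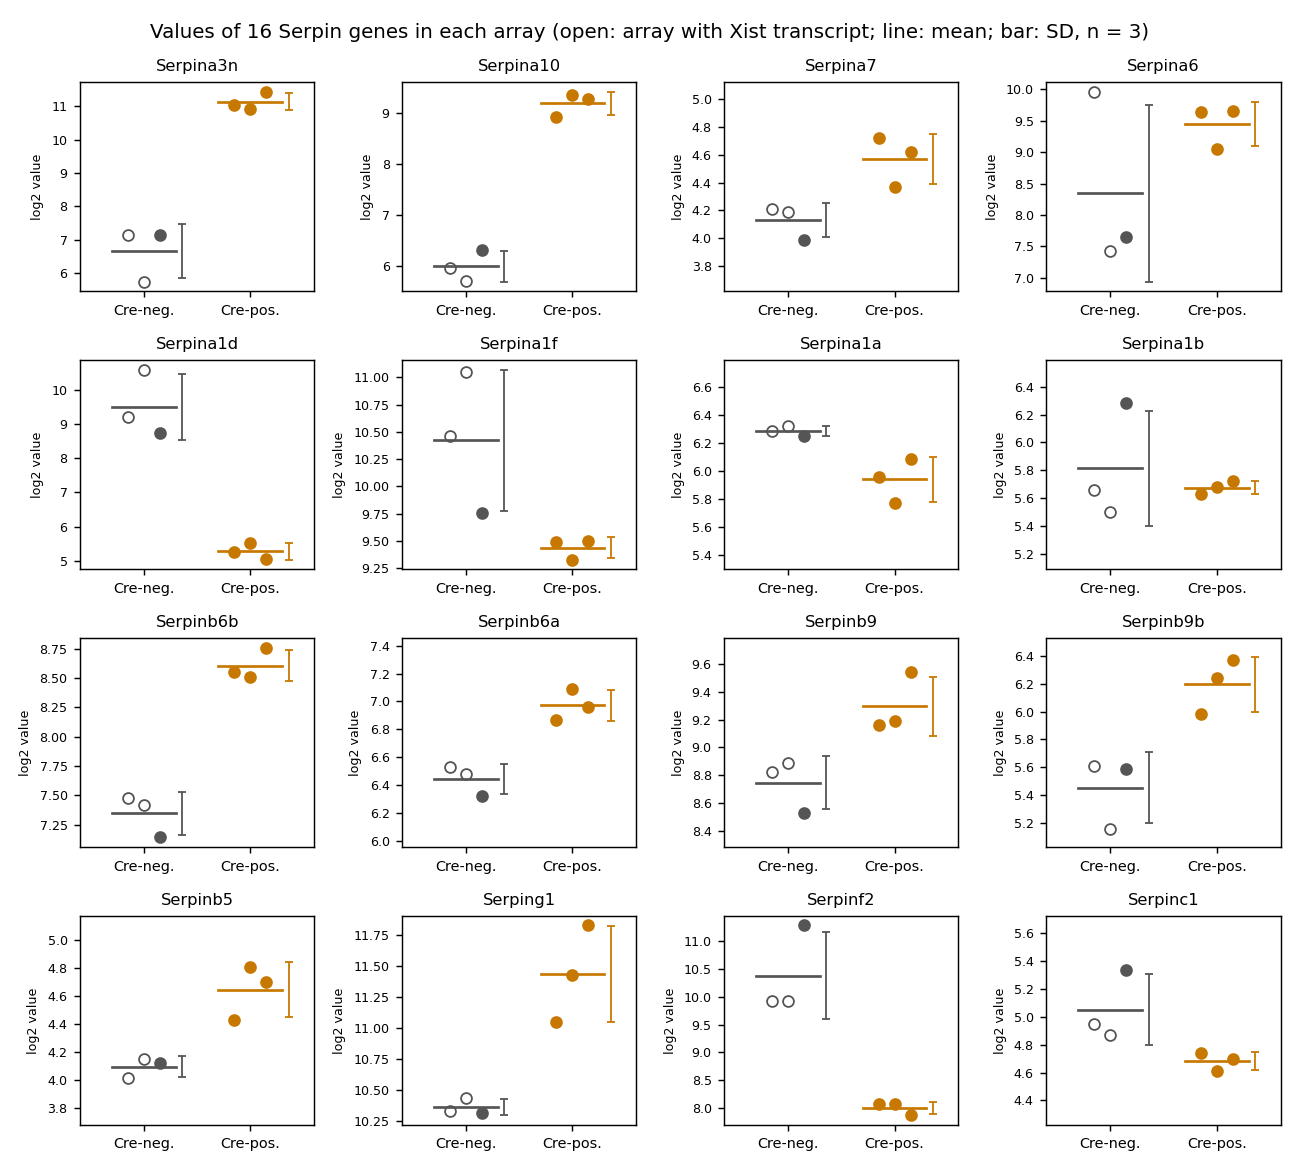
Log2 RMA values of 16 Serpin genes in each of the 3 Cre-negative (grey) and 3 Cre-positive (orange) arrays; lines are group means, bars at the side are SD (n = 3), open circles are arrays with Xist transcript, and the vertical scale differs between panels. Serpina3n and Serpina10 lie far above, and Serpina1d and Serpinf2 far below, their Cre-negative values in all 3 Cre-positive arrays, while Cre-negative replicate 1 of Serpina6 lies among the Cre-positive values.

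The alpha-1-antitrypsin genes Serpina1a to Serpina1e arose by tandem duplication, and the stretch before their start sites shows how alike they still are. These 120 bases of Serpina1d and the stretches aligned to them lie before the start sites. They are not part of the transcripts, so they do not show whether a probe set reads a single copy. The sequences are RefSeq's (GRCm38.p6, minus strand), written 5′ to 3′ along the gene, and capitals mark bases that differ from Serpina1d. Serpina1d is chr12:103773634-103773753, Serpina1a chr12:103863625-103863744, Serpina1b chr12:103738200-103738319, Serpina1c chr12:103904962-103905081 and Serpina1e chr12:103956960-103957079.
Serpina1d: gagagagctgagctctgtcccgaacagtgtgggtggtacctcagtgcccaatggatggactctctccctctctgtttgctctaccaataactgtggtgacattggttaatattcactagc
Serpina1a: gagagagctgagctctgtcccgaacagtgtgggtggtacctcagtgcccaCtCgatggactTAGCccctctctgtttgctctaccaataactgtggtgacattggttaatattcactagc
Serpina1b: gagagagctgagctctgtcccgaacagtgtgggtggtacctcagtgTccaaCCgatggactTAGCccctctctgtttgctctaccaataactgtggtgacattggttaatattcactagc
Serpina1c: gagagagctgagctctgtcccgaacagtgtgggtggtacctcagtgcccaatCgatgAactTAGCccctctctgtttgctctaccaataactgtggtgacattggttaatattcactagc
Serpina1e: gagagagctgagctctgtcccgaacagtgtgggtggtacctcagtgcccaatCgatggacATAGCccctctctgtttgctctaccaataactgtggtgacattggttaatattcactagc
Compared base by base without gaps, Serpina1a, Serpina1c and Serpina1e differ from Serpina1d at 6 of the 120 bases and Serpina1b at 7. All 5 carry GTTAAT from base 105, the core of the site of HNF1, a transcription factor of liver and proximal tubule. Either strand of GTTAAT is found in 7.1% of the 32851 RefSeq windows of 300 bases and in 10 of the 55 windows that 47 members have. The windows of the 5 copies shown are among these 10, so the 10 are not independent and the shares cannot be compared. The full palindromic HNF1 site was found in 0 of the 55, but it is in only 0.01% of all windows. That count is therefore too small to say anything about the members. Over the whole 300-base windows, Serpina1a to Serpina1d were 85.2% to 91.4% identical. Serpina1e was 63.9% to 69.3% identical to them, but its window is set off along the gene. Its alignments ran to 351 to 363 columns, against 302 to 312 among Serpina1a to Serpina1d, and gaps count as differences. Serpina1f was 48.1% to 52.6% identical to the other 5, and what unrelated windows would give was not tested.

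Alpha-1-antitrypsin restrains neutrophil elastase, and whether each mouse copy does so was not examined here. Among these copies Serpina1d gave the largest fall of the Serpin genes. Serpina1d (probe set 17283617, Entrez gene 20703) was at 9.20, 10.58 and 8.72 in the Cre-negative arrays (replicates 1, 2, 3, as throughout) and at 5.26, 5.53 and 5.05 in the Cre-positive ones. The groups did not overlap and lay more than 3 log2 units apart, with Cre-negative replicate 2 the highest. The difference was -4.22 ± 0.42, an 18.6-fold fall (95% interval 9.55 to 36.4; limma adjusted p = 0.000497), and -3.44 ± 0.47 with the sex term (limma adjusted p = 0.00775).

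The other 4 of the near-identical copies differed less. Serpina1a was at 6.29, 6.32 and 6.25 in Cre-negative and at 5.96, 5.77 and 6.09 in Cre-positive arrays. Its difference of -0.34 ± 0.10 was called (limma adjusted p = 0.0477). That call was lost on leaving out any one array except Cre-positive replicate 3 (limma adjusted p up to 0.137). With the sex term the call was also lost (limma adjusted p = 0.292), at a similar difference of -0.31 ± 0.16. Serpina1b was at 5.66, 5.50 and 6.28 against 5.63, 5.68 and 5.72, so the groups overlapped and only Cre-negative replicate 3 stood apart (-0.14 ± 0.19, limma adjusted p = 0.672). With the sex term, which compares with that array, Serpina1b was called lower (-0.60 ± 0.13, limma adjusted p = 0.0347). Serpina1c was at 4.78, 4.45 and 5.15 against 4.45, 3.81 and 4.45 (-0.56 ± 0.22, limma adjusted p = 0.122). Serpina1e was at 5.21, 5.37 and 5.22 against 5.13, 4.54 and 4.15 (-0.66 ± 0.22, limma adjusted p = 0.0708). Its groups did not overlap, and without Cre-positive replicate 1, the highest of its group, it was called lower (-0.92, limma adjusted p = 0.00508). On all 6 arrays it was called lower after median centring (-0.72, limma adjusted p = 0.0457) and after a second quantile normalization (-0.70, limma adjusted p = 0.0476), and with the sex term it was not (-0.61, limma adjusted p = 0.333).

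Serpina1f, a more distant neighbour, was at 10.46, 11.05 and 9.76 in Cre-negative and at 9.49, 9.33 and 9.50 in Cre-positive arrays. The lowest Cre-negative value, in the array without Xist transcript, lay close to the Cre-positive values. The difference was -0.98 ± 0.28 (limma adjusted p = 0.0412) and -0.32 ± 0.22 with the sex term (limma adjusted p = 0.473). Among the leave-one-out fits its call held only without Cre-negative replicate 3. Over Serpina1a to Serpina1f, 3 fell, 0 rose and 3 did not pass limma's test, while 5 were lower and 0 higher with unadjusted p below 0.05, a level at which 17.0% of all tested genes were lower and 16.5% higher. How far probe sets of these copies read each other's transcripts was not tested.

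Alpha-1-antitrypsin and several other clade A members are classical products of hepatocytes, some of which proximal tubule cells also make. Of 8 hepatocyte genes measured beside them, 2 rose (Fga, at 2.55 ± 0.18, and Ttr, at 1.10 ± 0.22, which was not called with the sex term, adjusted p = 0.153). The other calls were falls of 3 genes, Alb (-1.31 ± 0.34), Apob (-1.08 ± 0.13) and Apoa1 (-0.50 ± 0.14), of which only Apob kept its call with the sex term. The summed linear values of the 8 genes ran from 3619 to 6932 in Cre-negative and from 6249 to 7206 in Cre-positive arrays. Over all tested genes 10.7% were called higher and 11.1% lower. Of 11 proximal tubule genes 9 fell and 0 rose by limma's test, also at an unadjusted p under 0.05, with a median of -1.14. With the sex term 8 of the 9 calls held. Summed linear values of the 11 genes ran from 49320 to 51671 in Cre-negative and from 23565 to 25923 in Cre-positive arrays. Their part in the falls of Serpina1d, Serpina1f and Serpinf2 was not tested.

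The antichymotrypsin-like genes held the largest rise. Serpina3n, an acute-phase inhibitor of chymotrypsin-like proteases, is shown with the aligned stretches of Serpina3b and Serpina3i, the copies whose 300-base windows were most like its own at 68.6% and 64.7% identity. The sequences are RefSeq's (GRCm38.p6, plus strand), written 5′ to 3′, aligned with gaps that are not drawn, and with capitals at bases that differ from the aligned base of Serpina3n. The stretches are chr12:104406588-104406707 for Serpina3n, chr12:104127876-104127990 for Serpina3b and chr12:104263023-104263131 for Serpina3i.
Serpina3n: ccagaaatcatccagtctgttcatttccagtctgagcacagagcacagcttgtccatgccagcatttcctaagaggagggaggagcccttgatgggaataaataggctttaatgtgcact
Serpina3b: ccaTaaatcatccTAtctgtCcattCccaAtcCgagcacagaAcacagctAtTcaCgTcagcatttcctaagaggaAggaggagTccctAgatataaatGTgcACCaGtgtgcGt
Serpina3i: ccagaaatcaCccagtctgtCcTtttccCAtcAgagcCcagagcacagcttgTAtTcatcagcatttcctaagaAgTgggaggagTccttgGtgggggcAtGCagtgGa
Gaps included, Serpina3b differs from Serpina3n at 28 positions of this alignment and Serpina3i at 31. Acute-phase genes are often driven through STAT and C/EBP factors. The STAT core TTCNNNGAA is in 8.3% of all windows and in 8 of the 55 member windows, and the C/EBP core TTGCNNAA, either strand, is in 10.8% and in 15 of 55. AP-1's TGANTCA is in 7.81% of all windows and in 11 of 55, and HNF4's CAAAGTCCA, either strand, in 0.47% and in 0 of 55. None of these letters is in the Serpina3n window. In the member counts, duplicated genes such as the Serpina1 copies and overlapping windows of the same gene each count. The counts are therefore not of independent windows.

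Serpina3n (probe set 17278328, Entrez gene 20716) was at 7.14, 5.74 and 7.13 in Cre-negative and at 11.04, 10.93 and 11.43 in Cre-positive arrays. Every Cre-positive value was more than 3 log2 units above every Cre-negative value, and Cre-negative replicate 2 was lowest. The difference was 4.46 ± 0.36, a 22.1-fold rise (95% interval 12.4 to 39.1; limma adjusted p = 0.000208), and 4.01 ± 0.48 with the sex term (limma adjusted p = 0.00515). The other 4 measured copies stayed low in all arrays, and limma called 0 of them, also 0 with unadjusted p below 0.05. Serpina3a was at 4.21, 4.36 and 4.30 against 4.28, 4.25 and 3.95. Serpina3b was at 3.73, 3.61 and 3.41 against 3.81, 3.84 and 3.70. Their groups overlapped, with differences of -0.13 ± 0.11 and 0.20 ± 0.11. Serpina3i was at 3.59, 3.93 and 3.55 against 3.77, 4.13 and 3.71, and Serpina3j at 3.38, 3.29 and 3.28 against 3.31, 3.40 and 3.37. These groups overlapped too, with differences of 0.18 ± 0.15 and 0.04 ± 0.08. Copies such as Serpina3c, Serpina3f and Serpina3g were not analysed here.

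Serpina10 lies at the other end of the same chromosome 12 cluster in RefSeq order. It encodes the protein Z-dependent protease inhibitor, which acts on coagulation factor X in its active form. Serpina10 (probe set 17283565, Entrez gene 217847) was at 5.95, 5.70 and 6.30 in Cre-negative and at 8.93, 9.36 and 9.28 in Cre-positive arrays, with no overlap and a small spread in both groups. It rose by 3.21 ± 0.17, or 9.23-fold (95% interval 6.99 to 12.2; limma adjusted p = 5.66e-05), and by 2.89 ± 0.20 with the sex term (limma adjusted p = 0.000990).

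The hormone carriers of clade A gave less settled values. Serpina6, next to Serpina10 in RefSeq order, encodes corticosteroid-binding globulin. It was at 9.96, 7.42 and 7.65 in Cre-negative and at 9.64, 9.05 and 9.65 in Cre-positive arrays. Cre-negative replicate 1 was the highest of all 6, so the groups overlapped and the difference of 1.10 ± 0.60 did not pass (limma adjusted p = 0.254). Without that array limma called it higher (1.91, adjusted p = 0.00260), and with the sex term it was at 1.79 ± 0.83 (limma adjusted p = 0.251). Serpina7, the X-linked gene of thyroxine-binding globulin, was at 4.21, 4.19 and 3.99 against 4.72, 4.37 and 4.62. Its groups did not overlap, but all values were at or little above those of the Y-linked genes in the arrays with Xist transcript. The difference of 0.44 ± 0.12 was called (limma adjusted p = 0.0309). That call was lost on leaving out any one array except Cre-positive replicate 2 (limma adjusted p up to 0.102). With the sex term the call was also lost (limma adjusted p = 0.0753), though the difference was not smaller, at 0.58 ± 0.16.

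The remaining clade A members, Serpina5 (protein C inhibitor), Serpina9, Serpina11, Serpina12 (vaspin), Serpina16 and the pseudogene Serpina4-ps1, did not pass the test, with differences from -0.18 for Serpina11 to 0.06 for Serpina12. Along the chromosome 12 cluster, Serpina10 and Serpina3n at its ends rose, and Serpina1d, Serpina1a and Serpina1f between them fell. Of these falls only that of Serpina1d kept its call with the sex term. The stretch from Serpina11 to Serpina3j held no called gene.

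**Figure D2:**
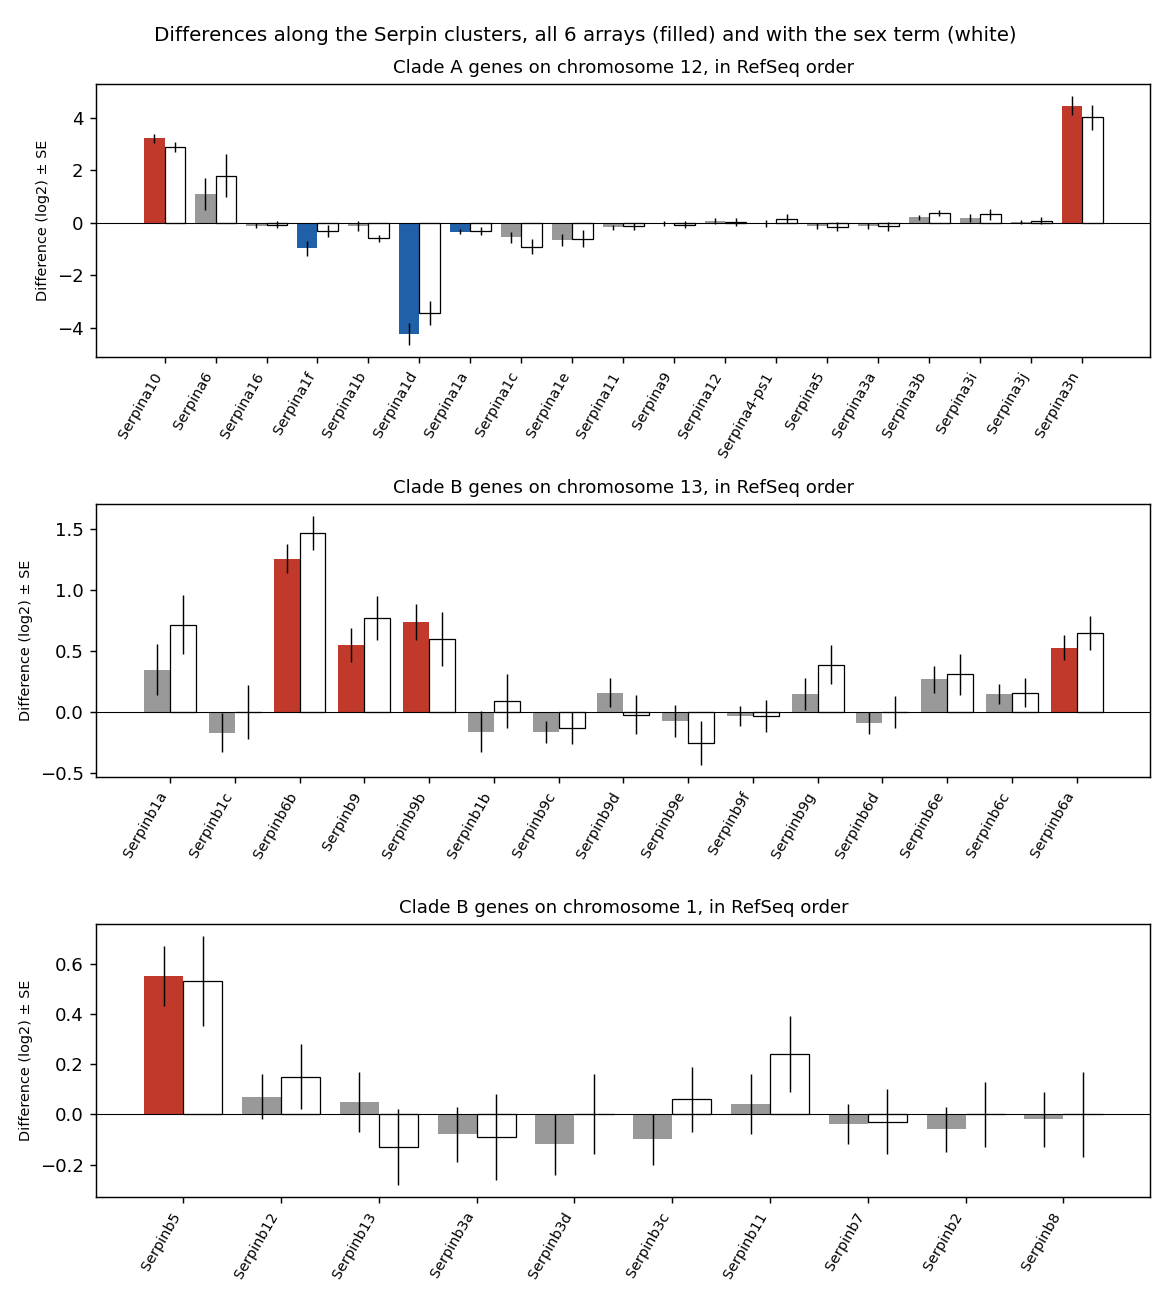
Differences on the log2 scale (Cre-positive minus Cre-negative, bars with SE) of neighbouring Serpin genes in RefSeq order, from all 6 arrays (filled; red called higher, blue called lower, grey not called) and with the sex term (white). On chromosome 12 the rises of Serpina10 (3.21) and Serpina3n (4.46) flank the fall of Serpina1d (-4.22), and on chromosome 13 called genes such as Serpinb6b (1.26) stand among grey ones; the vertical scale differs between panels.

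Clade B members are mostly intracellular and protect cells from proteases of their own granules and lysosomes or from those of attacking cells. Of 25 measured, 5 rose and 0 fell by limma's test, while 6 were higher and 0 lower with unadjusted p below 0.05, against 16.5% and 17.0% of all tested genes. The 5 called genes are 20.0% of the clade, against 21.8% of all tested genes called in either direction and 10.7% called higher. The clade median was 0.04, and 16 of the 25 were at or below 4.54 in every array, as were 4634 of all 22180 tested genes. All but 1 of the called genes lie in the chromosome 13 cluster, where 4 of 15 rose, against 1 of 10 in the chromosome 1 cluster; the difference between the clusters was not tested.

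Serpinb6b and Serpinb6a belong to a set of 5 measured paralogues. Serpinb6b (probe set 17286354, Entrez gene 20708) was at 7.48, 7.42 and 7.14 in Cre-negative and at 8.55, 8.51 and 8.76 in Cre-positive arrays. Each Cre-positive array was above each Cre-negative array, and the rise was 1.26 ± 0.12, or 2.39-fold (95% interval 1.98 to 2.90; limma adjusted p = 0.000421). With the sex term the rise was 1.47 ± 0.14 (limma adjusted p = 0.00259). Serpinb6a, an inhibitor of trypsin-like proteases and of cathepsin G, was at 6.53, 6.48 and 6.32 against 6.87, 7.09 and 6.96. It rose by 0.53 ± 0.10 (limma adjusted p = 0.00756) and by 0.65 ± 0.14 with the sex term (limma adjusted p = 0.0317), and the call was lost only without both replicates 2 (limma adjusted p = 0.0853). Serpinb6c, Serpinb6d and Serpinb6e did not pass, with differences of 0.15, -0.09 and 0.27. The 300-base windows of Serpinb6d and Serpinb6e were 67.3% identical, and those of all other pairs among these 5 genes 46.6% to 50.3%. What unrelated windows would give was not tested.

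Serpinb9 encodes an inhibitor of granzyme B, which shields cells against the granules of cytotoxic lymphocytes. It was at 8.82, 8.89 and 8.53 in Cre-negative and at 9.16, 9.19 and 9.54 in Cre-positive arrays. The groups were close but did not overlap, with a rise of 0.55 ± 0.14 (limma adjusted p = 0.0267) and of 0.77 ± 0.18 with the sex term (limma adjusted p = 0.0434). The call was lost without Cre-negative replicate 1 or 3 and without Cre-positive replicate 2 or 3 (limma adjusted p up to 0.0820). Its paralogue Serpinb9b was at 5.61, 5.16 and 5.59 against 5.98, 6.24 and 6.37 in the probe set used, without overlap (0.74 ± 0.15, limma adjusted p = 0.0116). With the sex term Serpinb9b was at 0.60 ± 0.22 and not called (limma adjusted p = 0.154). A second probe set of Serpinb9b stayed between 3.42 and 3.71 in all arrays, and with the mean of both the call was lost (0.38, limma adjusted p = 0.0617). The other 5 paralogues, Serpinb9c to Serpinb9g, ran from -0.16 to 0.16, and limma called 0 of them, also 0 with unadjusted p below 0.05. The windows of Serpinb9d, Serpinb9e, Serpinb9f and Serpinb9g were 83.2% to 93.4% identical.

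Serpinb5, which encodes maspin, a non-inhibitory member known from epithelia, was at 4.01, 4.15 and 4.12 against 4.43, 4.81 and 4.70. The groups did not overlap, at values near the lower end of the scale. It rose by 0.55 ± 0.12 (limma adjusted p = 0.0119), and that call was lost without Cre-negative replicate 1 (limma adjusted p = 0.0519). With the sex term the call was also lost (limma adjusted p = 0.122), at a similar difference of 0.53 ± 0.18. Serpinb1a, an inhibitor of neutrophil elastase and cathepsin G, was at 6.13, 6.54 and 5.78 against 6.81, 6.39 and 6.29. Its groups overlapped, and the difference of 0.35 ± 0.21 did not pass (limma adjusted p = 0.303). Serpinb2, the plasminogen activator inhibitor of macrophages and keratinocytes, was at 3.24, 3.40 and 3.24 against 3.20, 3.27 and 3.23 (-0.06 ± 0.09, limma adjusted p = 0.710).

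Of 10 macrophage genes measured beside clade B, 9 rose and 0 fell, also at an unadjusted p under 0.05, with a median of 1.79. Over all tested genes 10.7% were called higher and 11.1% lower. The macrophage gene not called was Csf1r, whose groups overlapped (0.31 ± 0.25, limma adjusted p = 0.455). With the sex term 5 of the 9 calls held, Cd14 and Lyz2 among them, and those of Adgre1, C1qa, C1qb and C1qc were lost. Their summed linear values ran from 1890 to 2095 in Cre-negative and from 3938 to 8716 in Cre-positive arrays, and their part in the rises of Serpinb6b, Serpinb6a, Serpinb9, Serpinb9b and Serping1 was not tested. Cd14 stood at 8.17 to 8.31 in the Cre-positive arrays, with little spread, and Lyz2 at 9.82 to 10.86. Of 8 neutrophil genes 1, Csf3r, rose (0.81 ± 0.11, limma adjusted p = 0.00220), and 5 were at or below 4.54 in every array, among them S100a8 and S100a9.

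**Figure D3:**
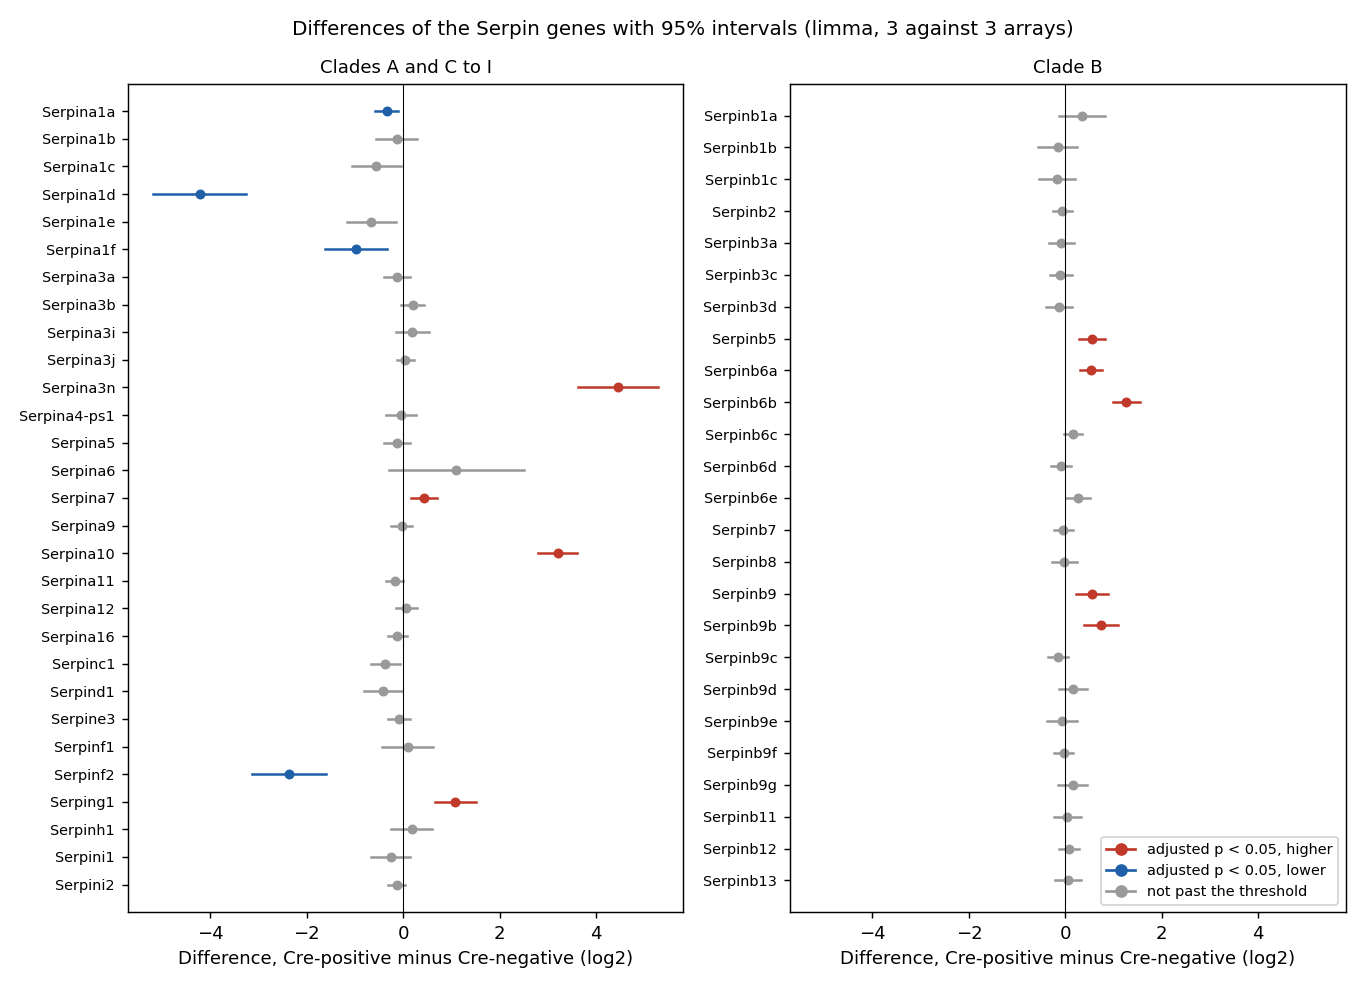
Differences of all 54 Serpin genes (points) with 95% intervals from limma (lines) on the log2 scale, Cre-positive minus Cre-negative, clade B apart from the other clades. The 9 red and 4 blue genes passed the test; clade B genes lie within -0.17 to 1.26, while clade A runs from -4.22 to 4.46.

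In clades C to F, which hold inhibitors of thrombin and plasmin, only Serpinf2 was called. Serpinf2 encodes alpha-2-antiplasmin, the main inhibitor of plasmin, made by liver and, in the mouse, by kidney. Serpinf2 (probe set 17265976, Entrez gene 18816) was at 9.93, 9.92 and 11.28 in Cre-negative and at 8.07, 8.07 and 7.87 in Cre-positive arrays. The groups lay well apart, and the highest value was that of the Cre-negative array without Xist transcript. It fell 5.17-fold (-2.37 ± 0.33, 95% interval of the fold 3.02 to 8.84; limma adjusted p = 0.00218), and the difference from that array was larger (-3.27 ± 0.14 with the sex term, limma adjusted p = 0.000384). Serpinf1, its neighbour on chromosome 11, encodes the non-inhibitory pigment epithelium-derived factor. It was at 6.94, 7.14 and 7.11 against 6.62, 7.21 and 7.63, with overlapping groups (0.09 ± 0.23, limma adjusted p = 0.831).

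Serpinc1, which encodes antithrombin, was at 4.95, 4.87 and 5.34 in Cre-negative and at 4.74, 4.61 and 4.70 in Cre-positive arrays. The groups did not overlap, and the difference of -0.37 ± 0.13 did not pass (limma adjusted p = 0.0869) but was called with the sex term (-0.66 ± 0.13, limma adjusted p = 0.0248) and after median centring of the arrays (-0.43, limma adjusted p = 0.0454). Serpind1, heparin cofactor II, was at 4.91, 4.76 and 4.24 against 4.30, 4.25 and 4.11. Only in the arrays with Xist transcript was it above 4.54, the highest Y-linked value in those arrays, and there by little. The difference was -0.42 ± 0.17 over all arrays (limma adjusted p = 0.123) and -0.02 ± 0.14 with the sex term. Without Cre-negative replicate 3 Serpind1 was called lower (-0.62, limma adjusted p = 0.0122). Serpine3, the clade E member measured, was at or below 4.42 in every array (-0.08 ± 0.10, limma adjusted p = 0.652).

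Serping1 encodes C1 inhibitor, which restrains the proteases that start the classical and lectin complement pathways and plasma kallikrein. Serping1 (probe set 17387517, Entrez gene 12258) was at 10.33, 10.43 and 10.31 in Cre-negative and at 11.05, 11.43 and 11.83 in Cre-positive arrays. The Cre-negative values were tight, and all Cre-positive values were higher. It rose by 1.08 ± 0.18, or 2.11-fold (95% interval 1.58 to 2.82; limma adjusted p = 0.00454), and by 1.13 ± 0.27 with the sex term (limma adjusted p = 0.0486), and the call was lost without both replicates 2 (1.12, limma adjusted p = 0.0551). Serpinh1 encodes Hsp47, a collagen chaperone of the endoplasmic reticulum. It was at 8.89, 8.80 and 8.90 against 8.58, 9.29 and 9.26, with Cre-positive replicate 1 the lowest of all 6. It did not pass (0.18 ± 0.18, limma adjusted p = 0.571), while without that array it was called higher (0.40, limma adjusted p = 0.0217). Its client genes Col1a1 and Col1a2 rose by 1.49 ± 0.22 and 1.31 ± 0.20. They come from the fibroblast list, in which 6 of 9 rose and 0 fell (also 6 and 0 at an unadjusted p under 0.05). Over all tested genes 10.7% were called higher and 11.1% lower. Only 1 of the 6 fibroblast calls held with the sex term, that of Col1a1 (limma adjusted p = 0.0453), while Col1a2 was at 0.0531. The summed linear values of that list were 6261 to 6521 in Cre-negative and 8834 to 15914 in Cre-positive arrays, lowest in Cre-positive replicate 1, and their part in the Serpinh1 values was not tested.

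Serpini1, which encodes neuroserpin, an inhibitor of tissue plasminogen activator, was at 4.62, 4.61 and 4.58 in Cre-negative and at 4.00, 4.30 and 4.75 in Cre-positive arrays. The Cre-positive values straddled the others (-0.25 ± 0.17, limma adjusted p = 0.375), and without Cre-positive replicate 3 the gene was called lower (-0.45, limma adjusted p = 0.0294). All its values were below or little above the Y-linked reference of 4.54. Serpini2 was at 3.14 or less in every array (-0.14 ± 0.08, limma adjusted p = 0.273).

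The proteases that serpins inhibit, with their cofactors and receptors, were examined through 6 lists. Of 46 measured genes 12 rose, 2 fell and 32 did not pass, or 30.4% called against 21.8% of all tested genes, with a median of 0.07 against -0.01 over all genes. With the sex term limma called 9 of them higher and 2 lower, all among these calls, the 3 lost being S100a10, F2r and Tmprss2, and after median centring 11 and 5. In the plasminogen list, which faces Serpinf2, 4 of 9 rose and 0 fell (44.4% called), and unadjusted p below 0.05 gave 5 higher and 1 lower. Plaur, the urokinase receptor, went from 6.14, 6.35 and 6.16 to 7.65, 7.82 and 7.87 (1.56 ± 0.10, limma adjusted p = 9.82e-05). Lrp1, which clears serpin and protease complexes, went from 9.27, 9.32 and 9.17 to 10.32, 10.52 and 10.44 (1.17 ± 0.09, limma adjusted p = 0.000187). Both rises were without overlap and held with the sex term. Anxa2 and S100a10, which together bind plasminogen at cell surfaces, rose by 0.89 ± 0.09 and 0.59 ± 0.09, the latter not with the sex term (limma adjusted p = 0.0519). Plasminogen itself (Plg, 0.02 ± 0.12) and its activators Plau (-0.13 ± 0.10) and Plat (0.01 ± 0.13) did not pass.

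Among 11 coagulation genes 2 rose and 2 fell, or 36.4% called against 21.8% of all tested genes. The rises were those of F3, tissue factor (1.32 ± 0.12), and F2r, a thrombin receptor (1.33 ± 0.22), the latter not called with the sex term (limma adjusted p = 0.0534). F5, the cofactor of active factor X, fell from 7.78, 7.65 and 7.25 to 5.40, 5.14 and 5.20 (-2.31 ± 0.15, limma adjusted p = 9.27e-05). Proc, protein C, fell from 8.54, 8.55 and 9.29 to 7.33, 7.45 and 7.34 (-1.42 ± 0.20, limma adjusted p = 0.00194), and like Serpinf2 it was highest in Cre-negative replicate 3. F10 (0.08 ± 0.12), the target of the Serpina10 product, and F2, prothrombin (-0.08 ± 0.09), the target of antithrombin, did not pass, and F2 was at or below 4.35 in every array, under the Y-linked reference of 4.54.

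Of 4 complement proteases measured beside Serping1, Masp1 of the lectin pathway rose (5.47, 6.16 and 5.43 against 6.92, 6.67 and 7.51, a difference of 1.35 ± 0.26, limma adjusted p = 0.00845). That list was called at 25.0%, against 21.8% of all tested genes. C1ra (0.45 ± 0.15, limma adjusted p = 0.0666) and C1s1 (0.19 ± 0.13, limma adjusted p = 0.355) did not pass. In the neutrophil and granzyme list, with targets of alpha-1-antitrypsin, Serpinb1a and Serpinb9, limma called 0 of 6, and 1, Gzma, was lower at an unadjusted p under 0.05 (-0.28 ± 0.10). Elane, neutrophil elastase, was at -0.05 ± 0.15, Ctsg at 0.19 ± 0.14 and Gzmb at -0.09 ± 0.12. Gzma and Ctsg were at or below 4.54 in every array, the highest Y-linked value in arrays with Xist transcript. The 7 cysteine cathepsins, lysosomal proteases that some clade B serpins bind, held 3 rises (42.9% called): Ctss (2.04 ± 0.26), Ctsk (1.38 ± 0.18) and Ctsc (1.13 ± 0.16), which also activates granule serine proteases. Ctsb (0.14 ± 0.11) and Ctsl (0.24 ± 0.09) did not pass. The epithelial serine proteases St14 (0.53 ± 0.14) and Tmprss2 (0.39 ± 0.11) rose, with limma adjusted p = 0.0274 and 0.0367. In their list of 9 genes 0 fell and 1 was lower at an unadjusted p under 0.05. The list was called at 22.2%, against 21.8% of all tested genes, so about as often as the background. Both calls were lost on leaving out Cre-negative replicate 1, 2 or 3 or Cre-positive replicate 1, and that of St14 also without Cre-positive replicate 2. That of Tmprss2 was also lost with the sex term (limma adjusted p = 0.123), after median centring and with the replicate block (limma adjusted p = 0.0569).

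**Figure D4:**
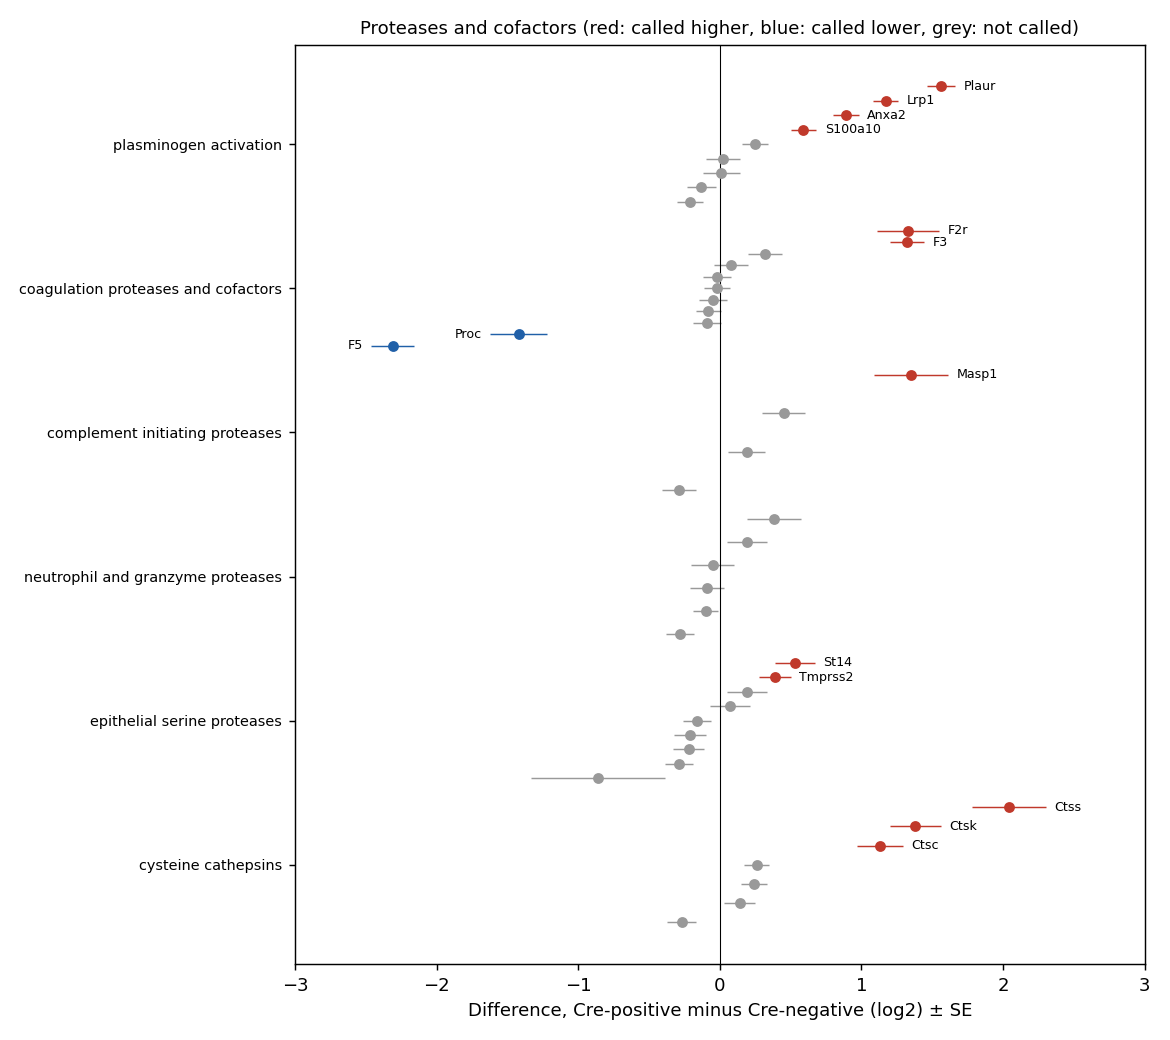
Differences (points, log2 scale, Cre-positive minus Cre-negative, with limma SE as lines) of 46 protease, cofactor and receptor genes in 6 lists; called genes are named and coloured. Plaur (1.56) and Ctss (2.04) lie farthest right in their lists and F5 (-2.31) farthest left, while the neutrophil and granzyme list holds grey points only.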

How the data were processed

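The authors deposited log2 values, 1 column per array. RMA and Partek come per the submitters' processing notes, which give no versions here. RMA includes background correction, quantile normalization and probe summary. That the scale is log2 was read from that convention and from the range of 1.89 to 13.6. Neither slide nor scan date was used, the build is not given in the sources used here, and 0 columns belonged to other samples. Of 41345 probe sets, 23521 had exactly 1 symbol in GEO's platform annotation, 1814 several and 16010 none. The first kind gave 22180 genes, and all 54 members matched the RefSeq table (GRCm38.p6) by Entrez ID.

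Differences were tested two-sided, without covariates, by limma 3.58.1 (lmFit and eBayes, R 4.3.3). Benjamini-Hochberg adjustment ran over all 22180 genes with no filter on low values, and the fit was checked on simulated data. Values in every array were given for called members differing by at least 1 and for well-known members whatever their outcome. From each protease list up to 4 genes of smallest p and any called gene could be named, and from each marker list the sex-linked genes, Cyp11b1, Myh4 and the members of highest mean. Other genes (among them Plg, Plat, Plau, F10, F2, Elane, Ctsb, Ctsl, Cd14, Lyz2, Fga, Ttr, Alb, Apob, Apoa1, Adgre1, C1qa, C1qb, C1qc, Csf3r, S100a8 and S100a9) were chosen after their values were seen, as was the HNF1 core. Members, lists and alternatives were chosen with earlier results of these data known. Alternatives were other normalizations, a level filter, eBayes trend and robust settings, the mean of a gene's probe sets, a threshold of 0.01, the sex term, the replicate block and leaving out arrays. Python 3.11.15 with pandas 2.3.3 and matplotlib 3.10.9 joined tables and drew figures.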

Additional observations from a re-analysis of the deposited data

How the results depend on the processing

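The calls of Serpina3n, Serpina10, Serpina1d, Serpinf2 and Serpinb6b held in every alternative that changed the normalization, the fit or the arrays, while the other 8 called members lost theirs in at least 1 of them. No called member changed direction. The 9 rises and 4 falls became 5 and 2 at a threshold of 0.01 (2516 of all genes), and 3 and 2 without both replicates 2 (1853 of all genes, against 4844). eBayes with trend and robust settings left 2 falls. Leaving out each array in turn gave 7 to 9 rises, 2 to 4 falls and 3141 to 4885 calls among all genes, with 2 falls each without Cre-negative replicate 1, Cre-negative replicate 2 or Cre-positive replicate 2, and 3141 calls without Cre-negative replicate 1. With the sex term 2030 genes were called. The 2 protease falls became 5 after median centring, 4 with genes below the median level left out and 4 with eBayes trend and robust settings; leaving out single arrays gave 10 to 12 rises and 2 to 3 falls. The members' median of -0.04 was -0.10 after median centring, 0.00 with the sex term, -0.05 to 0.00 over single arrays left out and 0.53 without genes below the median level, a setting that drops dim members. No label used here says whether replicate numbers pair the samples. Deviations of same-numbered arrays from their group means correlated at 0.03, -0.042 and -0.015, and not every array correlated best with its own number. With 3 arrays per group such deviations cancel within each group, so these values cannot exclude pairing. With the replicate block limma called 3977 genes, 7 Serpin rises and 3 falls, 11 protease rises and 2 falls, and the median was -0.04. No depth or detection value was used, so for dim members the signal over background limits what can be said. The cause of these changes was not tested.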
